A study of Rattus norvegicus with 18 samples.

Results

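Olfactory and vomeronasal receptor genes were followed through fetal rat germ cells in which DNA methylation had been measured by bisulfite sequencing of a captured rat panel. A listed region belonged to a receptor when the RefSeq transcript that the authors assigned to it carried an odorant receptor symbol (Or followed by a family number) or a vomeronasal receptor symbol (Vom1r or Vom2r). This gave 107 regions at 88 receptor genes, of 61661 regions and 8242 named genes in all, over 4 tables of differentially methylated regions (DMRs). The receptors were 17 class I odorant receptors, 63 class II odorant receptors, 1 V1R and 7 V2R genes. Receptors were chosen by symbol alone, but a region is listed only where the authors found a difference in methylation, so these 88 are the receptors with such a difference.

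The germ cells, called gonocytes in the labels, were sorted by fluorescence from Sprague-Dawley rat fetuses that carry a germ-cell-specific green fluorescent protein transgene (GFP-GCS), whose promoter the labels do not name. The 5 groups all carry this transgene and were HFD males (4 samples) and HFD females (3) at gestational day (GD) 16, control males at GD18 (4), control males at GD16 (4) and control females at GD16 (3). HFD dams received a high-fat diet with 45% of energy from fat and control dams a diet with 18%, with 5 dams a diet, and the labels do not say whether samples of a group came from separate litters or pooled fetuses. The series' design text names 4 samples as re-analysed from another project without saying to which group they belong, so a group of 4 males may differ from the others in project as well. The tables hold methylation only, so the germ cell label could not be checked against expressed markers. Each level below is an authors' group mean over the CpGs of a region, in percent, and "higher" or "lower" is used of a region that the authors listed at their false discovery rate (FDR) of at most 0.05, with at least 5 CpGs and a difference of at least 10 points. Values per sample, read counts and coverage were not analysed here, so the depth and the spread between animals behind each mean are unknown, and no test of condition could be added to the authors' own.

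Odorant receptors are G protein-coupled receptors of olfactory sensory neurons, each of which is known, from mouse, to express 1 allele of 1 receptor gene. They form large clusters in the genome and fall into class I receptors, which resemble those of fish, and class II receptors of land vertebrates. V1R and V2R receptors serve the vomeronasal organ, which detects pheromones and other cues. Fetal germ cells erase most of their DNA methylation before they set new patterns, which the male germ line does before birth and the female one after it.

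Odorant receptor genes in RefSeq mostly begin at their coding sequence, which bears on what a "promoter" region is here. The RefSeq tables give, for each gene, a window of 250 bases before and 50 after its annotated start (assembly GRCr8). Such a window was found for 78 of the 88 receptors, and in 74 of these (94.9%) the base after the first 250 began an ATG, the start codon. Over all receptors it was 1105 of 1193 windows (92.6%) and over the other genes 1771 of 26264 (6.74%). All 49 receptors with a window and a listed region that the authors placed at a promoter had this ATG. For these genes a promoter region is therefore a region near the start of the coding sequence, and the start of transcription may lie elsewhere.

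The windows of 4 receptors are shown because they carry the contrasts described below. Or13e8, Or13j1 and Or13c7c are class II receptors that lie near each other on chromosome 5 and were each listed in a different comparison, and Or52d3 is a class I receptor listed over the same coordinates in 2 comparisons. The sequences are from RefSeq, assembly GRCr8, read 5′ to 3′ on the gene's strand. The windows lie at chr5:62748640-62748939 (minus strand, 10 CpGs) for Or13e8, chr5:62758048-62758347 (minus strand, 6 CpGs) for Or13j1, chr5:62863745-62864044 (minus strand, 2 CpGs) for Or13c7c and chr1:168260956-168261255 (plus strand, 2 CpGs) for Or52d3. Capitals mark CpGs, the sites at which methylation is measured. The sources used here do not name the build of the authors' coordinates, so no listed region was placed on these letters.
Or13e8: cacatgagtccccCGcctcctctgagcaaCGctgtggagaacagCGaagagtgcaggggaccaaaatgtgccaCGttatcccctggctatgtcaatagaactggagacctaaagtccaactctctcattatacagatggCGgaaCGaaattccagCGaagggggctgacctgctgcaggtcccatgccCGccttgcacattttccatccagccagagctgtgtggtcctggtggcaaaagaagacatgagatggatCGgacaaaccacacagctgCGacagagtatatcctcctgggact
Or13j1: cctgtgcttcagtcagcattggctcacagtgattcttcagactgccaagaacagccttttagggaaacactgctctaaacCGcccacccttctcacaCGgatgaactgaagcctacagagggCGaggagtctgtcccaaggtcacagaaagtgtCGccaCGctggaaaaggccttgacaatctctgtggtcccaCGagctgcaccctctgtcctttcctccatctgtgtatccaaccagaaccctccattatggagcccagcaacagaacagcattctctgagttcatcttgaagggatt
Or13c7c: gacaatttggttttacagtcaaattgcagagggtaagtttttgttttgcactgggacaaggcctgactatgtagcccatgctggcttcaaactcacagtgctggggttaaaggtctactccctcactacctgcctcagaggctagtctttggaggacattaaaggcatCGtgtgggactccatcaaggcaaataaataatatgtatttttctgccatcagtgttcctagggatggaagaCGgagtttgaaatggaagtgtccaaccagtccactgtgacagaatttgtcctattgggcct
Or52d3: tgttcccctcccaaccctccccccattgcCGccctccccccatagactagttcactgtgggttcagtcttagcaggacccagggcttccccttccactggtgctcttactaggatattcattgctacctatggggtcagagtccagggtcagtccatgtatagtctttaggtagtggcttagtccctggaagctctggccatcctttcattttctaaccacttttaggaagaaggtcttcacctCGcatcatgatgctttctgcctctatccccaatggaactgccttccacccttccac

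The windows differ in how many CpGs they hold, with 10 at Or13e8 and 2 each at Or13c7c and Or52d3. Across the 78 receptors with a listed region the median was 3.0 CpGs (0 to 14), against 1.0 over 1115 receptors with none and 8.0 over the 26264 other genes. The letters TAATTA, a homeodomain core, and CCCNNGGG, the core of the site bound by Ebf (O/E) factors, were searched on both strands because such sites are known near mouse odorant receptor starts. TAATTA stood in 2 of the 49 windows of receptors with a listed promoter region (4.08%), in 224 of 1193 windows of all receptors (18.8%) and in 5.35% of all 27457 windows. CCCNNGGG stood in 3 of the 49 (6.12%), in 22 of the 1193 (1.84%) and in 12.7% of all windows. These matches describe letters only. Most receptor windows are placed on the start codon, so sites at a start of transcription elsewhere could lie outside them. A low share is therefore not read as a lack of such sites.

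Few receptor genes had any listed region. Of the 1300 receptor symbols with a curated RefSeq transcript, 88 (6.77%) had a region in at least 1 table, against 8242 of 19214 symbols of all genes (42.9%). By class the count was 17 of 134 class I receptors, 63 of 1027 class II receptors, 1 of 67 V1R genes and 7 of 72 V2R genes. Receptors with more CpGs in the start window had a region more often. Among curated genes with fewer than 5 CpGs there, 53 of 1055 receptors (5.02%) and 820 of 2401 other genes (34.2%) had a region, and with 5 or more, 25 of 54 receptors (46.3%) and 5713 of 11780 other genes (48.5%). Receptor genes were also short, with a median RefSeq length of 945 bp against 20417 bp. Among genes of at most 1500 bp, 67 of 936 receptors (7.16%) and 98 of 561 other genes (17.5%) had a region. The regions of the capture panel were not used here, so a receptor that was not captured and a captured receptor with no difference cannot be told apart.

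**Figure D1:**
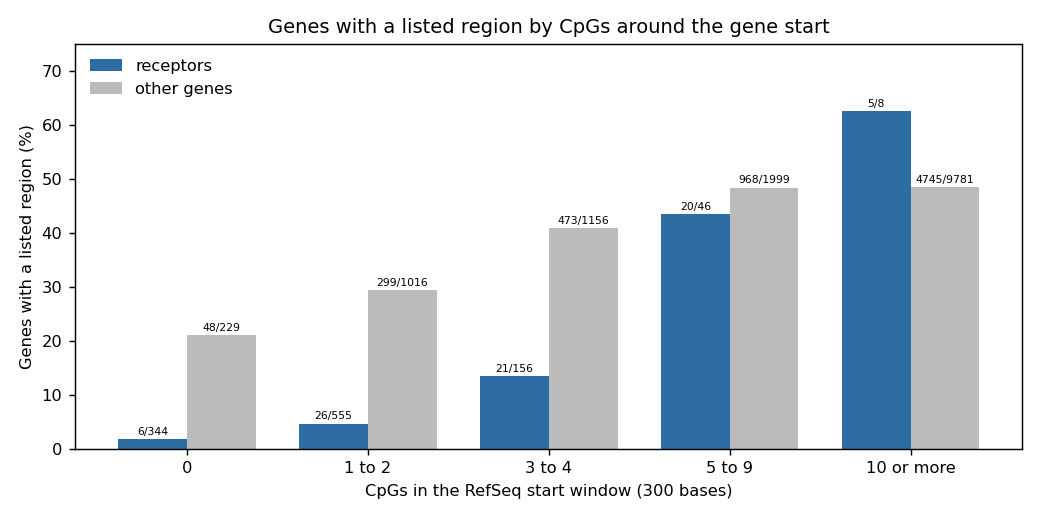
Percent of genes with a listed region in any table (y axis), by the number of CpGs in the RefSeq start window of 300 bases (x axis), for receptors (blue) and other genes (grey), with counts above the bars. The receptor bars climb from 1.74% of 344 genes with 0 CpGs to 62.5% of 8 genes with 10 or more, and those of other genes from 21.0% to 48.5%.

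The comparison of control males with control females at GD16 asked whether the erasure of methylation differs between the sexes, and it held most of the receptor data. All 91 receptor regions, at 81 genes, were higher in males. This direction is the background of the table, in which 99.7% of the 48127 regions were higher in males, and the 81 genes are 6.23% of the curated receptors, against 40.7% of all curated genes. The receptor regions had a median of 20% in males (12.7 to 36.5%) and 4.6% in females (0.4 to 13.5%) among the authors' means. The 24352 other regions with a gene had medians of 19.6% in males and 4.8% in females. The median difference was 14 points at receptors and 14.3 points at the other regions with a gene. Differences of at least 20 points made up 11.0% of receptor regions (10 of 91) and 17.1% of the others. Receptor regions were poorer in CpGs, with a median of 1.67 per 100 bp against 2.19.

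Class I receptors, all of the Or51, Or52 and Or55 families in this table, had 18 regions at 16 genes, with medians of 20.9% in males and 4.5% in females. Class II receptors had 64 regions at 57 genes, with medians of 20.1% in males and 4.8% in females. The V2R genes had 8 regions at 7 genes, with medians of 19.5% in males and 4.5% in females. Vom1r90, the V1R gene, had 15.2% in males and 3.9% in females over 38 CpGs of an intron. The medians of the 3 classes with several regions lay between 19.5% and 20.9% in males and between 4.5% and 4.8% in females.

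**Figure D2:**
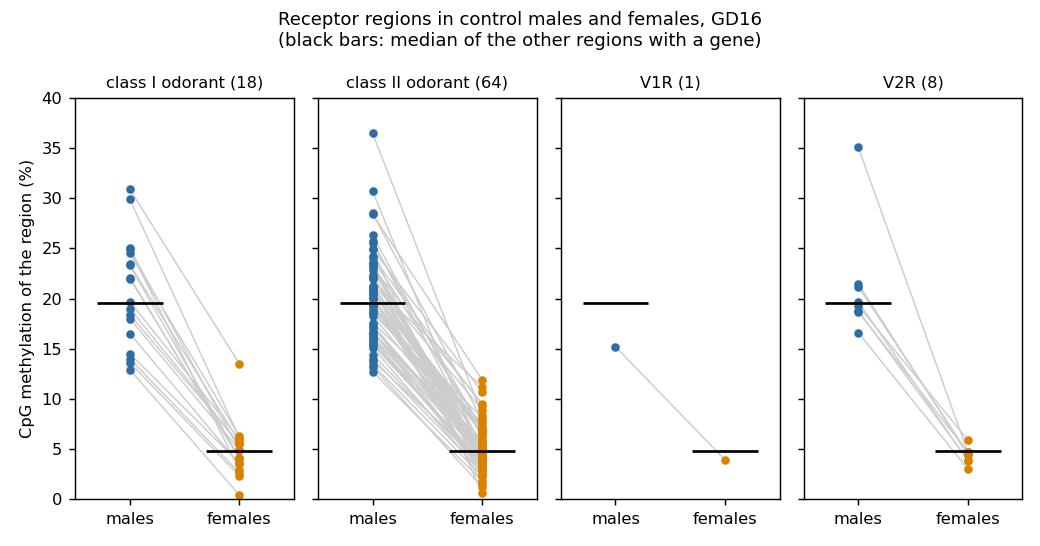
CpG methylation of each receptor region (y axis, percent) in control males (blue, left) and control females (orange, right) at GD16, joined by a line, by receptor class with the number of regions. The points are the authors' group means (4 male and 3 female samples), and the black bars are the medians of the other regions with a gene, 19.6% in males and 4.8% in females. Each line descends towards females, and the highest male points are 36.5% (class II) and 35.1% (V2R).

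The 10 largest differences came from each class except V1R. Vom2r36, a V2R gene, led with 35.1% in males and 4.7% in females over 5 CpGs of an intron (chromosome 1, 65994920 to 65995423) in the authors' deposited table. This stretch was the receptor region that the authors annotated as a repeat, a B3A element of the SINE B2 family. Or4g7 followed with 36.5% in males and 8.4% in females at its promoter (chromosome 3, 102657795 to 102658042) in the authors' deposited table, the highest male level of all receptor regions.

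Or8s8 had 30.7% in males and 4.0% in females over 9 CpGs of its exon (chromosome 7, 140054900 to 140054991) in the authors' deposited table. Or13e8 had 24.9% in males and 0.6% in females at its promoter (chromosome 5, 59198624 to 59199266), so that females were almost free of methylation there. The class I receptor Or52d3 had 29.9% in males and 6.1% in females at its promoter (chromosome 1, 169575039 to 169575257) in the authors' deposited table. Promoters of Or51r1 (24.9% in males, 2.9% in females), Or2y1g (28.5% and 7.9%), Or9s23b (25.7% and 5.2%) and Or8b45 (26.3% and 6.1%) came next in the authors' deposited table. The transcript end of Or52l1 closed the 10, with 25% in males and 4.9% in females.

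The 3 regions with the most CpGs had differences of 11.3 to 17.1 points. Vom2r72 had 21.5% in males and 4.4% in females over 41 CpGs of an intron in the authors' deposited table, and its FDR of 1.7e-40 was the smallest of the receptors. Or8s5 had 18.3% in males and 5.1% in females over 38 CpGs of its exon, and Vom1r90 is given above. The FDRs of the 91 regions ran from 1.7e-40 to 0.0296 in the authors' deposited table, with a median of 1.07e-05. The table heads its test as a t-test of 2 samples and does not say whether CpGs or animals were its replicates. Of the 91 regions, 22 had the minimum of 5 CpGs, against 3511 of the 24352 other regions with a gene.

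Median levels were close across the parts of a receptor gene. Promoter regions numbered 47 (51.6%), exons 23 (25.3%), transcript ends 13 (14.3%) and introns 8 (8.79%). Among the other regions with a gene introns made up 73.1%, exons 14.3%, promoters 4.33% and transcript ends 4.32%. Receptor genes were far shorter, with a median of 945 bp against 20417 bp, and the shares were not matched for length. They are therefore not read as a concentration of differences at receptor promoters. Male medians were 20.5% at promoters, 19.7% in exons, 18.6% at transcript ends and 19.0% in introns of receptors. Female medians were 4.9%, 4.4%, 4.2% and 4.1% in the same order. Introns held 5 of the 8 V2R regions, and none of the 18 class I regions.

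Receptor regions within 1 Mb of the next were grouped as a cluster, a rule set after their positions were seen. The largest cluster was that of class I receptors on chromosome 1 (167587822 to 170175632), with 18 regions at 16 genes over 2587.8 kb. Levels there ran from 12.9 to 30.9% in males (median 20.8%) and from 0.4 to 13.5% in females (median 4.5%). Both female extremes lay in it, with 0.4% at the transcript end of Or52s20, where males had 12.9%, and 13.5% in the exon of Or52h2, where males had 30.9%. On chromosome 15, 7 regions at 6 genes lay over 938.7 kb, with 16.2 to 23.2% in males and 1.5 to 6.7% in females. On chromosome 9 the Or6b and Or9s genes had 6 regions over 93.1 kb, with 15.7 to 25.7% in males and 3.4 to 7.0% in females. The Or8s genes on chromosome 7 had 5 regions over 125.6 kb, with 15.4 to 30.7% in males and 3.6 to 9.3% in females. The levels of the sexes did not overlap in these clusters except in the class I cluster, where 1 female region (13.5%) exceeded the lowest male one (12.9%). Such a gap is favoured by the listing itself, which takes only regions that differ by at least 10 points. Of all regions listed in this comparison, 99.7% were higher in males. Groups of neighbouring regions at other genes were not examined, so the gap is not read as a property of receptor clusters.

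**Figure D3:**
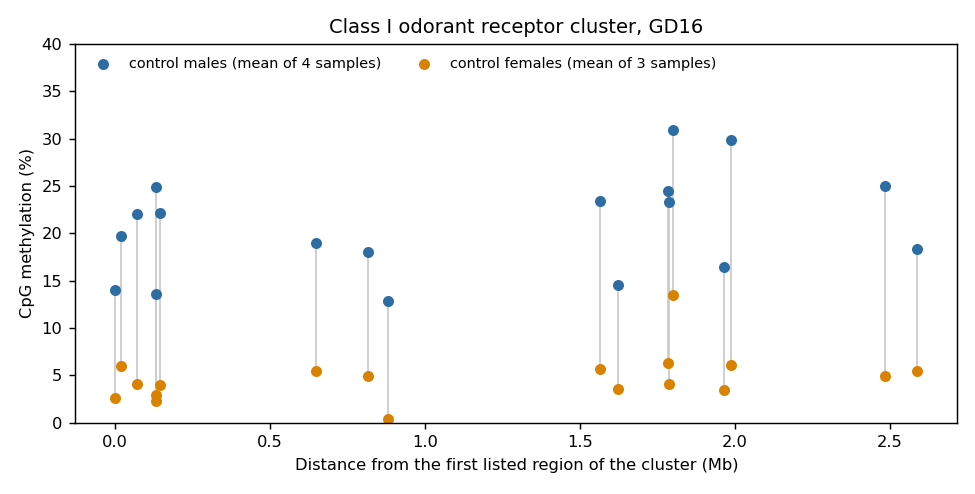
CpG methylation (y axis, percent) of the 18 class I receptor regions on chromosome 1 by distance from the first of them (x axis, Mb), in control males (blue) and control females (orange) at GD16. Points are authors' group means of 4 male and 3 female samples and grey lines join the sexes of 1 region. Male levels range from 12.9 to 30.9% along the cluster, and each region is higher in males.

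Neighbouring regions of the same receptor did not always share a level. Between the sexes at GD16, 10 genes had 2 regions each, and the male levels of a pair differed by 0.7 to 11.3 points. Or51r1 had 24.9% in males at its promoter and 13.6% in its exon, 1014 bp away, in the authors' deposited table. The intron of Or1e16 held 2 regions only 13 bp apart, with 15.1% and 25.5% in males and 2.5% and 7.0% in females. Or10ac1 and Or52h1 were even, with male levels 0.7 and 1.2 points apart. Several receptors in the table have names that mark them as close copies, such as Or1x2, Or1x2b and Or1x2d or Or6b2 and Or6b2b. The sources used here do not say how reads that match several copies were treated, so levels of such copies are uncertain.

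Maternal high-fat diet was compared with control diet in males at GD16 to ask whether diet alters this methylation. Receptors had 14 regions at 14 genes, of which 11 were lower and 3 higher in HFD males. Lower regions made up 74.0% of all 10084 regions of the table, and 11 of 14 is close to that background. The 14 genes are 1.08% of the curated receptors, against 15.3% of all curated genes. The 11 lower receptor regions had a median of 9.7% in HFD males (0.3 to 18.6%) and 22.5% in control males (11.2 to 29.9%), against 10.3% and 25.2% over all lower regions. Falls at receptors were small, with a median of 11.2 points against 13.5 points over all lower regions. Or8s8 apart, the falls at receptors were of 10.1 to 12.7 points.

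Class I receptors supplied 3 of the falls, each at a promoter in the chromosome 1 cluster. Or52h7 had 14.9% in HFD males and 27.0% in control males (chromosome 1, 169561352 to 169561549, FDR 0.000404) in the authors' deposited table. Or52d3, some kilobases further on, had 18.6% in HFD males and 29.9% in control males, with an FDR of 0.0478 that lies close to the limit. Or52h1 had 12.3% in HFD males and 22.7% in control males in the authors' deposited table.

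Class II receptors supplied the other 8 falls. Or8s8 led, with 9.2% in HFD males and 29.1% in control males over 11 CpGs of its exon (chromosome 7, 140054816 to 140055128, FDR 2.11e-06) in the authors' deposited table. Or6c203 (6.6% in HFD males, 19.3% in control males), Or4c3 (7.4% and 18.6%), Or8b45 (12.3% and 23.5%) and Or10d1 (12.4% and 22.5%) fell at promoters in the authors' deposited table. Or6e1 had 0.3% in HFD males and 11.2% in control males at its promoter, the lowest level in HFD males among these regions. Or1x2 had 8.5% in HFD males and 19.4% in control males in its exon. Or2t44b had 9.7% in HFD males and 19.9% in control males over 22 CpGs at its transcript end, the most CpGs of the 14 regions, with an FDR of 5.54e-07 in the authors' deposited table.

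The 3 rises included the largest changes. The class I receptor Or52h2 had 42.1% in HFD males and 0.0% in control males over 5 CpGs in 79 bp of its exon (chromosome 1, 169386248 to 169386326, FDR 1.21e-08, the smallest of the 14) in the authors' deposited table. Only 135 bp further on, the same exon had 30.9% in control males in the sex table, where a region is listed only if males differ from females. Or5d40 had 35.4% in HFD males and 2.5% in control males over 5 CpGs at its transcript end (chromosome 3, 76367953 to 76368117) in the authors' deposited table. Or13c7c had 26.9% in HFD males and 14.9% in control males over 9 CpGs at its promoter (chromosome 5, 59313519 to 59314199). If only differences of at least 20 points were kept, the 2 larger rises remained and none of the falls. Over all regions of this comparison, 930 of 2623 rises (35.5%) and 1738 of 7461 falls (23.3%) were that large. The 2 receptor rises are therefore not read as a direction of large changes. If only regions of at least 10 CpGs were kept, 2 falls and no rise remained, among 2624 of all 10084 regions.

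**Figure D4:**
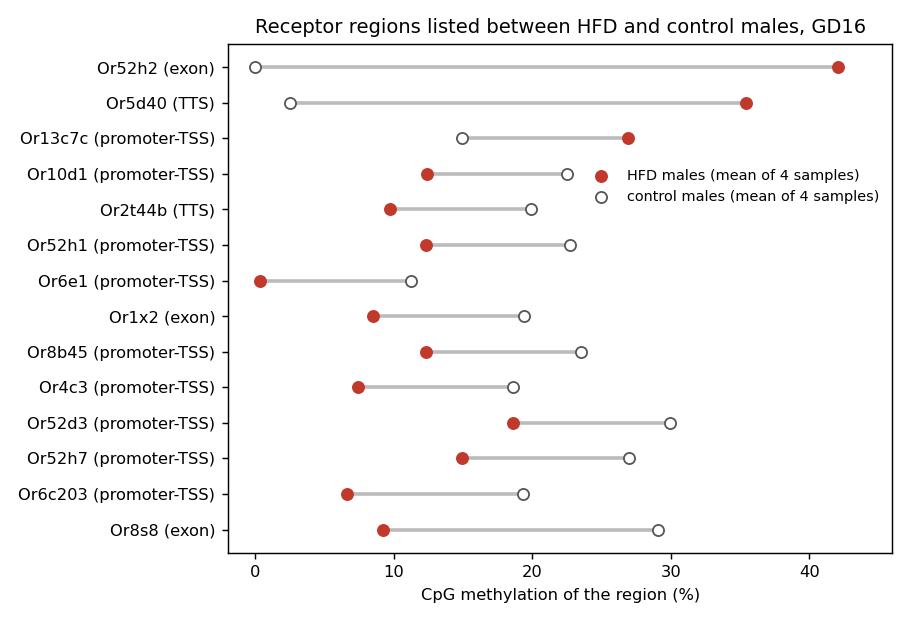
CpG methylation (x axis, percent) of the 14 receptor regions listed between HFD males (red) and control males (open circles) at GD16, with the gene and the authors' annotation on the y axis. Points are authors' group means of 4 samples each and the grey bar is the difference. The 3 rises stand at the top, led by Or52h2 at 42.1% against 0.0%, and the 11 falls below them.

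At 8 of the 11 falling receptors (72.7%) the sex table listed a region over part or all of the same stretch, near the 70.0% of all lower regions of the diet table, and both tables use the same control males. Over identical coordinates Or52d3 had 18.6% in HFD males, 29.9% in control males and 6.1% in control females. Or1x2, also over identical coordinates, had 8.5% in HFD males, 19.4% in control males and 3.7% in control females. The remaining 6 overlapped in part. Or8s8 had 9.2% in HFD males, 29.1% in control males of the diet table and, over 92 shared bases, 30.7% in control males and 4.0% in control females of the sex table. Or6e1 had 0.3% in HFD males and 2.3% in control females, the pair among the 8 in which HFD males stood below females. In the other 7 the HFD male level lay between those of control females and control males. Its place below control males was fixed by the choice of falling regions, and 6 of the 8 compare regions of unlike extent. The same share over all overlapping regions was not taken.

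**Figure D5:**
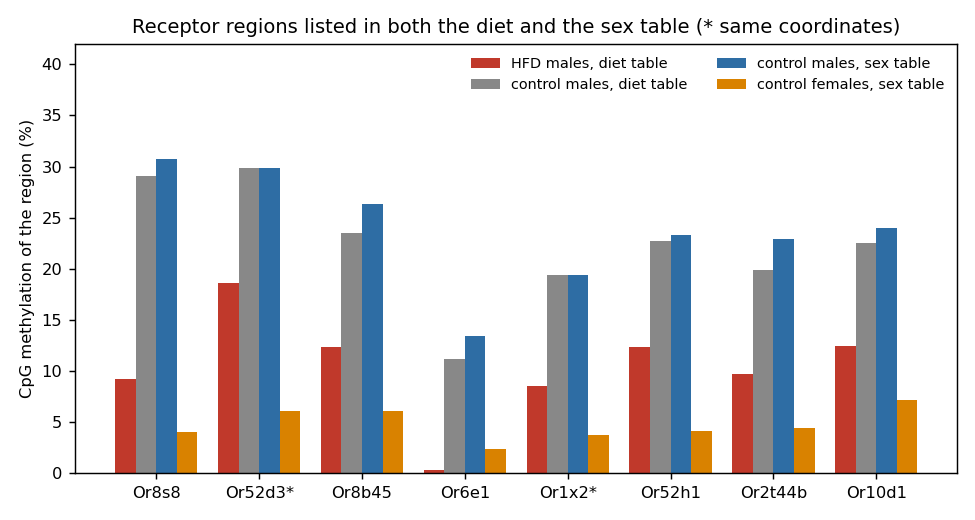
CpG methylation (y axis, percent) at the 8 receptors with overlapping regions in the diet and sex tables (x axis), for HFD males, control males of the diet table, control males of the sex table and control females. Bars are authors' group means, and stars mark Or52d3 and Or1x2, whose regions have the same coordinates in both tables. Except at Or6e1, the HFD male bar lies between the female and the control male bars. Its place below the control male bar of the diet table is fixed by the choice of falling regions.

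In females the diet comparison listed no receptor region among its 1832 regions. Of all curated genes 3.59% had a region there. Whether diet acts differently on receptors in the 2 sexes was not tested.

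Control males at GD18 were set against control females at GD16, a comparison in which day and sex differ together, and possibly project, since the 4 re-analysed samples are not assigned to a group. It listed 2 receptor regions, both at promoters of class II receptors on chromosome 5 and both lower in GD18 males. They are 0.154% of the curated receptors, against 3.22% of all curated genes, and 92.5% of all 1618 regions were lower. Or13j1 had 3.1% in GD18 males and 17.5% in GD16 females over 7 CpGs (59208331 to 59208620, FDR 0.0178) in the authors' deposited table. Or10ak14b had 5.0% in GD18 males and 16.8% in GD16 females over 5 CpGs (137584429 to 137584658, FDR 0.0477). Neither gene was listed between the sexes at GD16. Over all regions lower in GD18 males the female median was 16.5%.

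Or13e8, Or13j1 and Or13c7c brought 3 comparisons together on a short stretch of chromosome 5. The Or13e8 region ended 9.1 kb before that of Or13j1, which ended 104.9 kb before that of Or13c7c. Or13e8 was higher in GD16 males than in females (24.9% and 0.6%), Or13j1 lower in GD18 males than in GD16 females (3.1% and 17.5%) and Or13c7c higher in HFD males than in control males (26.9% and 14.9%) in the authors' deposited tables. Each region was chosen by its own table's difference, so the levels of neighbours are not compared.

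Other genes of chemosensation were taken from lists of transduction components, factors of receptor choice and further receptor families. Over all curated genes 40.7% had a region between the sexes, where 99.7% of regions were higher in males, and 15.3% had a region in HFD males, where 74.0% of regions were lower. Of 15 curated olfactory transduction genes 11 had a region between the sexes at GD16, all 34 regions higher in males, and 3 had a region in HFD males, each lower. The promoter of Stoml3, a stomatin-like protein of olfactory cilia, was listed over the same or nearly the same stretch in all 4 tables. The stretch held 6 CpGs, or 5 in the comparison of HFD females, and the comparisons share control groups. It had 35.0% in control males and 0.0% in control females at GD16 in the authors' deposited tables. HFD males had 7.1% there, against the same 35.0% in control males, and HFD females had 10.4%, against 0.0% in control females. GD18 males had 13.1%, set against the 0.0% of control females. Stoml3 was thus lower in HFD males and higher in HFD females than in their controls, a difference that was not tested. With 0.0% in control females, a difference from them could only be a rise. Adcy3, the adenylyl cyclase of olfactory cilia, was lower with the diet in both sexes, each time in an intron. It had 9.8% in HFD males and 21.1% in control males, and at 2 other regions 5.6% and 1.4% in HFD females, against 19.9% and 12.1% in control females, in the authors' deposited tables. The first of these female regions was also listed without the diet, with 2.3% in GD18 males against the same 19.9% in control females.

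Read against the same shares of all genes, of 5 curated vomeronasal transduction genes 3 had a region between the sexes, with all 12 regions higher in males, and Gnao1, a G protein subunit of V2R neurons, had 15.1% in HFD males and 29.1% in control males. Of 14 genes tied to receptor choice in sensory neurons 10 had a region between the sexes, with 50 of 51 higher in males, a direction that 99.7% of all regions had. The exception was an intron of Bcl11b, a zinc finger factor, with 11.7% in males and 26.2% in females. The same or nearly the same stretch was listed in all 4 comparisons. GD18 males had 6.4% there, against the same 26.2% in control females. HFD females had 1.3%, against 27.0% in control females, and HFD males had 24.4%, against 12.7% in control males. The directions with diet were the reverse of those at Stoml3, which was not tested. The sex difference of the controls was reversed as well, and the comparisons share these controls. The directions are therefore not independent results. Among the genes tied to receptor choice HFD males had 12 lower and 4 higher regions, against 74.0% lower over the whole table. Bcl11b and Ebf1 supplied most of the regions of these genes, both between the sexes and in HFD males. Gene length was not matched between the lists and all genes. Of 70 curated genes of other chemosensory families (trace amine, taste and formyl peptide receptors, Ms4a genes and Gucy2d) 15 had a region between the sexes, all 20 higher in males, against 40.7% of all curated genes. In HFD males 8 of the 70 had a region, against 15.3% of all curated genes, with 4 higher and 5 lower, such as Tas2r134, a bitter taste receptor, with 15.6% in HFD males and 27.0% in control males over 29 CpGs, and Tas1r2, a sweet taste receptor, with 41.9% in HFD males and 13.7% in control males over 8 CpGs. In HFD females and in GD18 males none of these families had a region.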

How the data were processed

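Bisulfite libraries were made with a rat target enrichment kit from DNA of sorted germ cells, per the labels' protocols. The submitters' processing notes list Bismark 0.19.0 and Bowtie2; for the genome, a build was not given in the sources used here. Per the file headers, the authors deposited each group's mean methylation per region as a fraction, written here as percent, the signed difference of the means as a score, and a p-value and FDR from a test headed as a 2-sample t-test. The test planned for values per sample was not made, since the tables hold group means. Depth per sample is unknown, so no interval is given.

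Identifiers were matched to the RefSeq table of GRCr8 without version, after a stray bracket was removed from 11 receptor identifiers. All 88 receptors are on the chromosome that GRCr8 gives except 5 (Or2t45, Or8b45, Or8c11, Vom2r4 and Vom2r23), so the builds differ. The 2 deposited tables of rises of at least 50 points hold no receptor and were not used. Named genes are those with a region in the diet or GD18 tables and, between the sexes, the 10 largest differences, the 5 largest promoter differences and the 3 regions with most CpGs. Clusters, genes with 2 regions, the examples from the chemosensory lists and the genes named among them were chosen after their values were seen, as was the split by gene length. The members and lists were chosen with earlier results of these data known. Regions of 2 tables were matched at an overlap of at least 1 bp. Python 3.11.15, pandas 2.3.3 and numpy 2.4.6 were used, and the matching steps were tested on simulated data.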

Additional observations from a re-analysis of the deposited data

How the results depend on the processing

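Counts of receptor regions were taken again with at least 10 CpGs, a difference of at least 20 points, an FDR of at most 0.01, a length of at least 50 bp, no intergenic regions, and numbered chromosomes, X and Y alone. The settings of length, intergenic regions and chromosomes could not change the receptor counts. Each receptor region was at least 79 bp long, had a gene annotation and lay on such a chromosome. With at least 10 CpGs, 33 of the 91 regions of the sex comparison remained, 2 of the 14 in HFD males (0% higher) and 0 of the 2 in GD18 males. Over all regions, 20089 of 48127, 2624 of 10084 and 336 of 1618 remained in the same order. With at least 20 points the numbers were 10 in the sex comparison, 2 in HFD males (100% higher) and 0 in GD18 males. Over all regions they were 8398, 2668 (930 of them higher) and 237. An FDR of at most 0.01 left 0 receptor regions in GD18 males, where it left 1059 of all 1618 regions. The other settings kept each count within 1.5 times. Under them the share higher stayed at 100% between the sexes and at 0% in GD18 males. In HFD males it stayed at 21.4%, or was 30.0% at an FDR of at most 0.01. HFD females had 0 receptor regions under each setting, so no share higher could be computed there, nor where no region was left. No paired analysis was possible because the deposited tables hold group means, and for the same reason no replicate could be left out. The regions' read depth is unknown, and most receptor regions hold few CpGs.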
